A study of Bos taurus with 9 samples.

Results

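Glycolysis and the genes induced by low oxygen were examined, under added salt, in bovine cells of the nucleus pulposus, the gel-like centre of the intervertebral disc. The list of 48 genes held 23 glycolytic enzymes and sugar or lactate transporters, 4 genes of glycogen metabolism, 3 genes of oxygen sensing and 18 other targets of hypoxia-inducible factor. Of these, 40 had a probe set that the platform annotation gives to that symbol alone, out of 9155 genes with such a probe set on the array. The brightest such probe set over all arrays stood for each gene. A low-intensity filter left 38 of the 40: 20 glycolytic genes, 3 of glycogen, 3 of oxygen sensing and 12 other hypoxia targets. HK2, PDK1, CA9, CA12, ANKRD37, INSIG2B, GYS1 and STC2 were not analysed here, as no probe set of theirs carried a single symbol in the annotation used.

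The cells came from caudal discs of young calves, were grown on plates in DMEM medium holding 10% fetal bovine serum, and were measured on 9 Affymetrix arrays. There were 3 arrays of untreated control cells, 3 of cells kept for 5 h with salt at 500 mOsm/kg and 3 of cells kept in it for 24 h. The series' design text gives the question as the response to hyperosmotic stress, with 3 biological replicates per condition. Whether each culture had its own donor animal is not given. A p-value here therefore weighs a difference against the spread between these cultures only, and need not hold across animals. The controls carry no time in their label and are shared by both salt times, so time in culture and salt cannot be told apart. No oxygen level is given.

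Glycolysis converts glucose to pyruvate and, with lactate dehydrogenase, to lactate, which monocarboxylate transporters carry out of the cell with a proton. The nucleus pulposus has no blood vessels, and its cells are known for relying on glycolysis and for keeping hypoxia-inducible factor 1 alpha (HIF1A) active. Prolyl hydroxylases (EGLN genes) mark that factor for destruction when oxygen is present, and its targets include most glycolytic enzymes, mitophagy receptors and collagen-modifying enzymes. The gene roles given here are known mostly from human and mouse work.

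Values are intensities on a linear scale, and differences are on the scale of log2(intensity + 16), which understates changes of dim probe sets. A gene was called at a limma adjusted p under 0.05 (Benjamini-Hochberg over the 18012 probe sets tested). Errors after ± on differences are standard errors of that fit, with 3 arrays per group. Arrays with the same replicate number deviated together across groups, so each comparison was also fitted with the replicate number as a block, which compares groups within numbers. The adjusted p of that fit is given wherever it changed a call, and "with the block only" sets those 2 fits side by side and no other setting.

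The 3 arrays numbered 3, 1 from each group, stood apart from the other 6 on the first principal component, which held 47.7% of the variance. Of the 15 nucleus pulposus markers listed, 10 were measured and 5 lay above the array median on all 9 arrays, 3 of them (HIF1A, SLC2A1 and BNIP3) also on the gene list studied here. The summed intensity of those 10 markers was 10716.9 to 11644.6 in control, 10786.9 to 12562.1 at 5 h and 10566.8 to 12068.2 at 24 h. That sum joins changes in both directions, so its steadiness does not show that each marker was steady. At 24 h BNIP3, the only 1 of the 10 called, averaged 872, against 2832 in control. ACAN averaged 2995, against 1261, and HIF1A 5278.5, against 4336. ACAN and CDH2 were bright, but KRT8, KRT18, KRT19 and NCAM1 stayed below the median on all arrays, so the labelled cell type rests on few of its markers here. Markers of endothelium (0 of 5), leukocytes (0 of 6) and red cells (0 of 3) never lay above the median on all arrays, whereas 5 of 6 fibroblast and 2 of 4 muscle markers did. At 24 h some other-cell markers were called higher: COL12A1 and THY1 of the fibroblast list, CD14 of the leukocyte list and CKM of the muscle list. Other members of those lists were not called, among them ACTA1 of muscle (-0.60) and COL1A1 and COL1A2 of fibroblasts (-0.32 and -0.22). The summed fibroblast intensity was 23601.6 to 28997.5 at 24 h, against 22891.7 to 31772.7 in control. The leukocyte sum was 429.3 to 467.4 at 24 h, against 221 to 246.8 in control, and PTPRC, which defines leukocytes, ranged over 0 to 36.8. The muscle sum was 1157.2 to 3421 at 5 h and 2146.7 to 3503.6 at 24 h, against 919.6 to 1093 in control. The leukocyte sum at 24 h, and the muscle sum at both times, did not overlap control, whereas the fibroblast sums did. A single gene carried most of each rise in the sum: CD14 averaged 286 at 24 h, against 95.6 in control, and CKM 2652, against 641. The log2 ratio of 3′ to 5′ control probe sets of actin was 2.99 ± 0.28 at 24 h and 2.69 ± 0.18 in control (SD, n = 3 arrays each). The actin 5′ probe set was dim, with 15.1, 15.7 and 22.5 at 24 h, against 40.4, 32.3 and 46 in control. For GAPDH the ratio was 0.025 ± 0.016 at 24 h and -0.084 ± 0.092 in control. The part of these shifts in the results was not tested, and on bulk RNA fewer cells of a type and less RNA per cell cannot be told apart.

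After 5 h in salt no gene of the list passed the test without the replicate block, and the glycogen scaffold PPP1R3C was called lower with it. Of 38 tested, 0 were called higher and 0 lower by limma without the block, where 0.233% of all probe sets were called higher and 0.25% lower. At an unadjusted p under 0.05, 0 were higher and 2 were lower, PPP1R3C and ADM. With the replicate block 0 were called higher and 1 lower, PPP1R3C, beside 2.45% and 3.41% of all probe sets. The median difference of the 38 genes at 5 h was -0.0015, beside -0.030 over all probe sets tested.

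PPP1R3C encodes a scaffold that brings protein phosphatase 1 to glycogen and favours glycogen synthesis. Its intensity was 301, 323 and 385 on the control arrays, 220.2, 139 and 245 at 5 h and 886, 697 and 1006 at 24 h. The 5 h arrays all lay below the control arrays and the 24 h arrays all above both. The 5 h difference of -0.73 ± 0.23 had an adjusted p of 0.37, and of 0.014 with the replicate block. With the block and without the arrays numbered 3 it was 0.140, not called. Its other probe sets differed by -0.75 and -0.71 at 5 h. ADM, the precursor of the vasodilator peptide adrenomedullin, had 5447, 5492 and 6213 at 5 h, against 7738, 6254 and 6717 in control. These groups did not overlap, yet the difference of -0.27 ± 0.098 was not called in either fit (adjusted p 0.50, and 0.099 with the block). The other 36 genes lay between -0.35 (PFKFB3) and 0.30 (EGLN3) at 5 h.

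After 24 h the lactate transporters SLC16A1 and SLC16A3, the triose enzyme TPI1, the mitophagy receptor BNIP3 and the stress gene NDRG1 had fallen, and the aldolase ALDOC and the glycogen scaffold PPP1R3C had risen. Of the 38 tested, 2 were called higher (5.26%) and 5 lower (13.2%), beside 4.28% and 4.32% of all probe sets. With the replicate block 9 were called higher (23.7%) and 12 lower (31.6%), beside 18.3% and 17.5%. The share called higher lay near that of all probe sets and the share called lower above it, a contrast that was not tested. All probe sets include dimmer ones and ones without a gene symbol, whereas the list took the brightest of each gene. The median difference was -0.096 over the 38 genes, beside 0.023 over all tested. It was -0.14 over the 20 glycolytic genes and 0.11 over the 12 other hypoxia targets. Centring each array on its median moved the calls over all probe sets from 771 higher and 779 lower to 503 and 827, and kept the sign of all 38 genes.

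**Figure D1:**
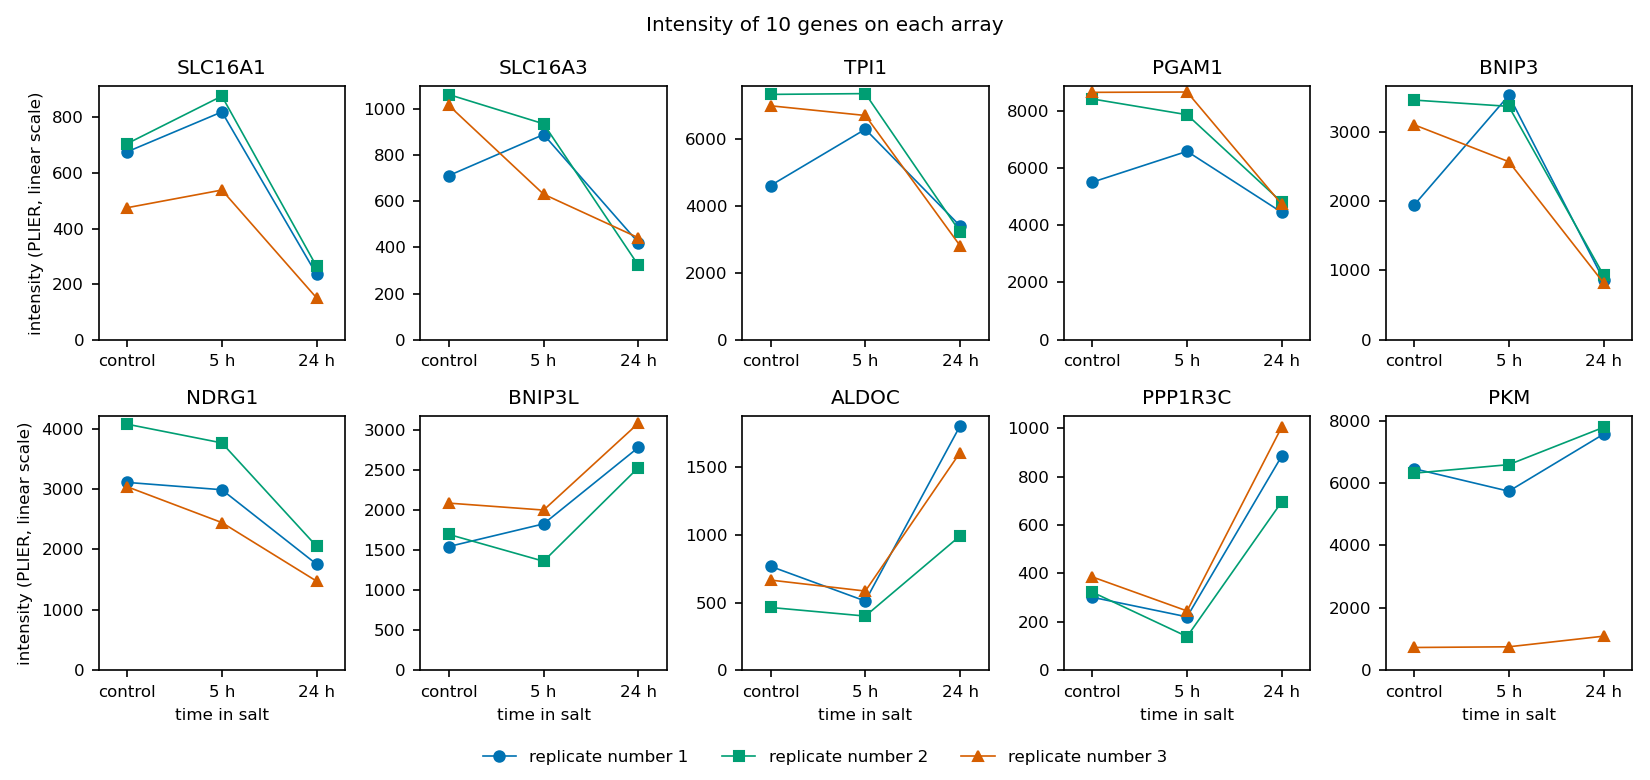
Intensity (linear scale) on the y axis of each panel against time in salt on the x axis for 10 of the genes, 1 point per array and 1 line per replicate number. SLC16A1, SLC16A3, TPI1, PGAM1, BNIP3 and NDRG1 are lowest at 24 h in every replicate number, BNIP3L, ALDOC and PPP1R3C are highest there, and PKM is low on all 3 arrays numbered 3.

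The transporters that carry lactate out of the cell fell at 24 h. SLC16A1 had intensities of 676, 705 and 475 on the control arrays, 819.5, 876 and 539 at 5 h and 235, 264 and 150.4 at 24 h. The highest 24 h array lay below the lowest control array, with the same order in every replicate number. SLC16A1 fell by 1.46 ± 0.27 (log2) at 24 h (limma adjusted p 0.016). SLC16A3, the low-affinity transporter of strongly glycolytic cells, had 712, 1063 and 1016 on the control arrays, 889.6, 936 and 631 at 5 h and 421, 323 and 442 at 24 h. Here too the 24 h arrays lay below all others. SLC16A3 fell by 1.19 ± 0.22 at 24 h (adjusted p 0.017). Its 2 dimmer probe sets differed by -0.67 and -0.91, called with the replicate block only (adjusted p 0.017 and 0.012).

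At the entry to glycolysis the differences at 24 h were called with the block or not at all. SLC2A1, the main glucose transporter of many cells, had 909.7, 974 and 554 at 24 h, against 674, 1099.9 and 729 in control, a difference of -0.044 ± 0.31 that was not called in either fit. SLC2A3, another glucose transporter, was below the filter, with 0 to 34.9 over the 9 arrays. HK1, a hexokinase that traps glucose as its phosphate, had 2272, 2273 and 1016 at 24 h, against 2805, 3587 and 1436 in control. Each 24 h array lay below the control array of its own number, while the groups as a whole overlapped. The HK1 difference of -0.48 ± 0.48 had an adjusted p of 0.64, and of 0.0025 with the block. GPI, the next enzyme, had 4368, 4569.5 and 2792 at 24 h, against 4323, 6062 and 4702 in control. Within numbers the GPI difference was 0.015, -0.41 and -0.75, with a mean of -0.38 (adjusted p 0.32, and 0.034 with the block).

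Phosphofructokinase, which makes the committed step of glycolysis, is built from the subunits PFKL, PFKM and PFKP. PFKP had 705, 482 and 521 at 24 h, against 978, 869 and 732 in control, without overlap. Its difference of -0.59 ± 0.20 was called lower with the block only (adjusted p 0.0044, against 0.11 without it). PFKL had 1145, 941 and 155 at 24 h, against 1274, 2078 and 366 in control. The arrays numbered 3 were the dimmest of each group, and the difference of -0.82 ± 0.96 had an adjusted p of 0.71 without and 0.0061 with the block. PFKM had 506, 394 and 495 at 24 h, against 349, 413 and 354 in control, a difference of 0.31 ± 0.16 in the opposite direction that was not called in either fit. Whether the subunits differ from each other was not tested. PFKFB3 and PFKFB4, which set the level of an activator of phosphofructokinase, differed by 0.072 ± 0.32 and -0.020 ± 0.15 and were not called.

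Of the aldolases, which split the sugar into trioses, ALDOC rose at 24 h and ALDOA was called lower with the block or after centring the arrays on their medians. ALDOC, the form first described in brain, had 768, 463 and 666 on the control arrays, 511, 399.8 and 585 at 5 h and 1808, 993 and 1610.3 at 24 h. Each 24 h array lay above every control and 5 h array. ALDOC rose by 1.18 ± 0.27 (adjusted p 0.033). This call is among the less firm ones: the adjusted p was 0.062 without the 3 arrays numbered 3, 0.056 after centring and 0.065 with the 6 compared arrays alone, and 1.2e-04 with the block. ALDOA, the muscle and general form, had 5725, 5083 and 3625 at 24 h, against 6329, 7731 and 6241 in control. Its groups did not overlap, and its difference of -0.51 ± 0.17 was called lower with the block (adjusted p 0.0047, against 0.11 without it). After centring without the block it was -0.58 (adjusted p 0.046).

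Among the enzymes that handle trioses, TPI1 fell at 24 h and PGAM1 lay at the threshold, while PGK1 between them was not called. TPI1, which interconverts the triose phosphates, had 4606, 7328 and 6987 on the control arrays, 6287, 7351 and 6698 at 5 h and 3399, 3219 and 2808 at 24 h. All 24 h arrays lay below all others, and control replicate 1 was the lowest of the control arrays. TPI1 fell by 0.98 ± 0.17 at 24 h (adjusted p 0.015). PGAM1, the phosphoglycerate mutase, had 5500.2, 8407 and 8637 on the control arrays, 6578, 7856 and 8648 at 5 h and 4446, 4798 and 4725 at 24 h. Its 24 h difference of -0.66 ± 0.17 had an adjusted p of 0.0505, just short of a call, and of 0.0010 with the block, with no overlap between groups. Without the block it was called with a pseudocount of 64, with the stricter filter at the 50th percentile, or without control replicate 1. PGK1, a kinase that makes ATP in this stretch, had 7734, 7716 and 8158 at 24 h, against 7804, 9014 and 9209.5 in control, a difference of -0.14 ± 0.11 that was not called in either fit.

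GAPDH, ENO1 and LDHA were not called at any time in either fit. GAPDH had 11785, 10659 and 11119 at 24 h, against 11963, 12696 and 12471 in control, a difference of -0.15 ± 0.063 without overlap. ENO1, an enolase, differed by -0.016 ± 0.072, and LDHA, which reduces pyruvate to lactate, by -0.048 ± 0.071. The lowest percentile that the probe sets of these 3 genes took on any array was 99.76, near the top of the range, where saturation can understate a change. LDHB differed by -0.12 ± 0.13. A dimmer probe set of LDHA differed by 0.31, called with the block only (adjusted p 0.042), so the probe sets of LDHA disagree. ENO2, the neuronal enolase, was below the filter, with 30.2, 29.4 and 19.3 at 24 h, against 10.9, 11.2 and 0.4 in control.

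PKM, the pyruvate kinase that ends the pathway, had 7570.3, 7789 and 1088 at 24 h, against 6462, 6319 and 725 in control. On the arrays numbered 3 its intensity was far below that on the other 6, at every time, and replicate number held 98.1% of its sum of squares. Within numbers the difference at 24 h was 0.23, 0.30 and 0.57, with a mean of 0.37 ± 1.16. The adjusted p was 0.92 without and 0.0089 with the block, and 0.10 with the block after leaving out the arrays numbered 3.

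**Figure D2:**
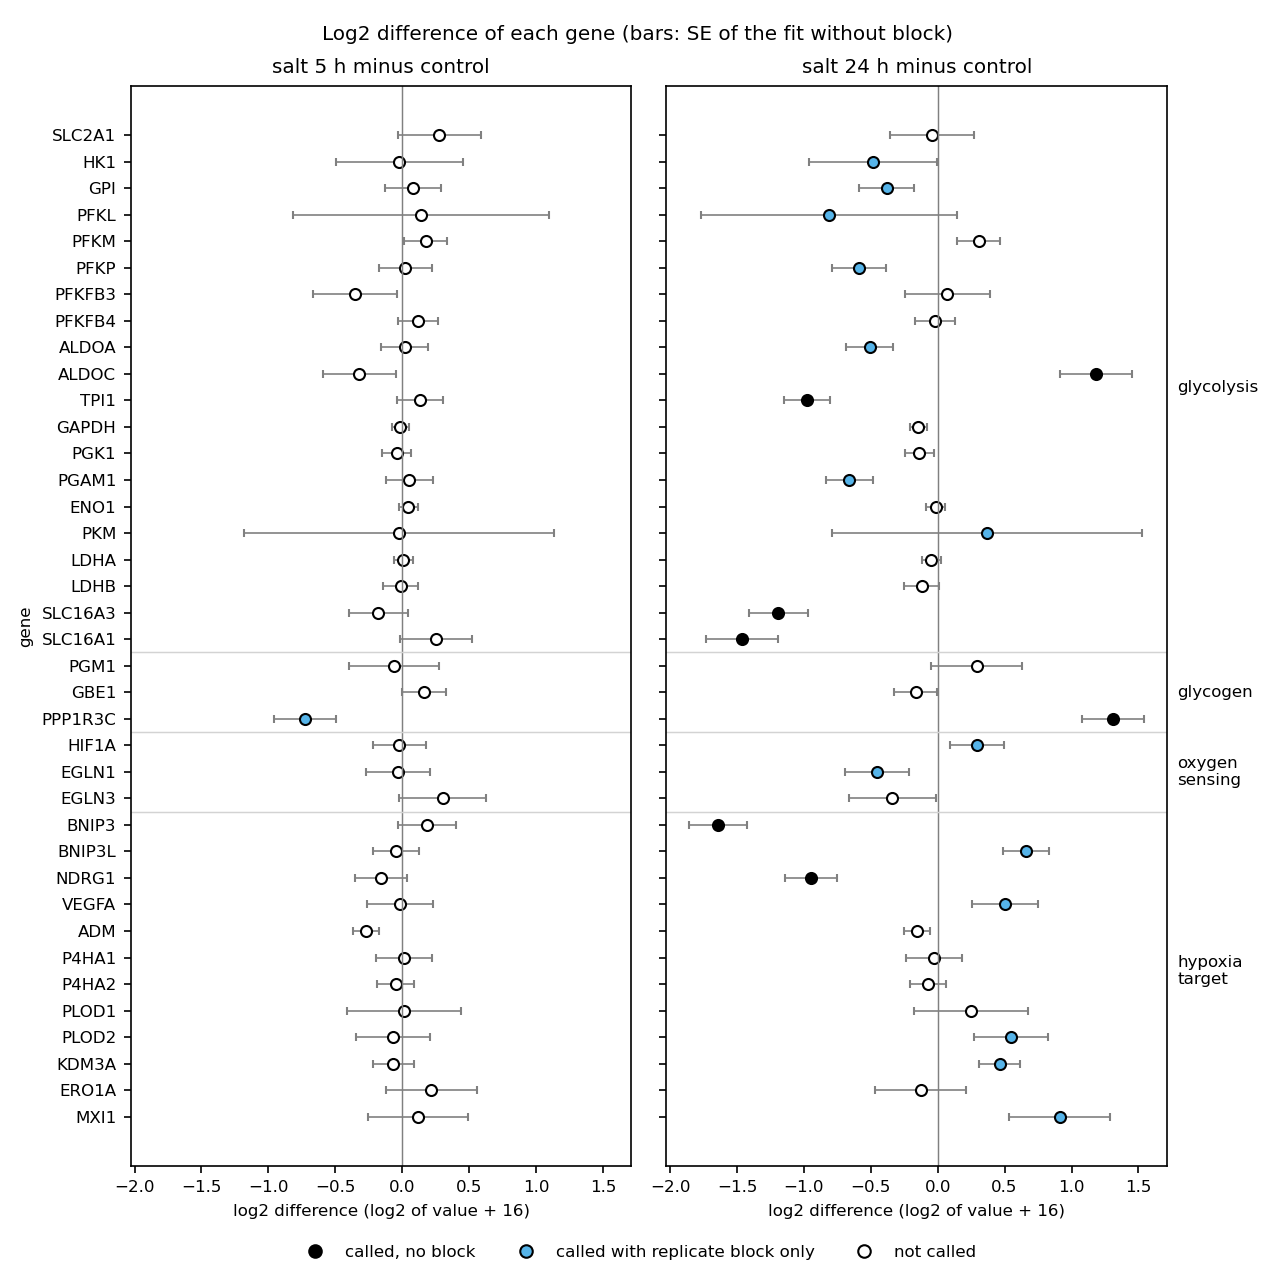
Log2 difference on the x axis of each of the 38 tested genes, listed down the y axis by role, for salt 5 h minus control (left panel) and salt 24 h minus control (right panel), with bars of 1 SE of the fit without the block. At 24 h BNIP3 is lowest at -1.64 and PPP1R3C highest at 1.31, while at 5 h all points lie between -0.73 and 0.30.

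In the glycogen branch PPP1R3C rose by 1.31 ± 0.23 at 24 h (adjusted p 0.015), with the intensities given for 5 h. Its other probe sets differed by 1.19 and 1.22 and were called too. PGM1, the mutase that joins glycogen to glycolysis, had 876, 657 and 382 at 24 h, against 653, 500 and 362 in control. Its difference of 0.29 ± 0.34 was not called at 24 h against control in either fit. GBE1, the branching enzyme, differed by -0.16 ± 0.16 and was not called.

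In oxygen sensing no gene was called at 24 h without the block. HIF1A had 4916, 5036 and 5884 at 24 h, against 4154, 3669 and 5185 in control. Each 24 h array lay above the control array of its number, and the difference of 0.29 ± 0.20 was called higher with the block only (adjusted p 0.044, against 0.45 without it). With the block and the arrays centred it was 0.22 and not called (adjusted p 0.12). EGLN1, the main prolyl hydroxylase acting on HIF1A, had 1481, 1165 and 1005 at 24 h, against 1671, 1976 and 1353 in control. Its difference of -0.45 ± 0.24 was called lower with the block only (adjusted p 0.017, against 0.31), and its other probe sets differed by -0.49 and -0.45. EGLN3, a hydroxylase that hypoxia induces, had 43.8, 44.1 and 103 at 24 h, against 97.0, 60.7 and 84.1 in control. Replicate numbers 1 and 2 were lower at 24 h and number 3 higher, and the difference of -0.34 ± 0.32 was not called in either fit.

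Of the mitophagy receptors BNIP3 and BNIP3L, related proteins of the mitochondrial outer membrane, BNIP3 fell at 24 h and BNIP3L lay at the threshold in the other direction. BNIP3 had 1941, 3456 and 3101 on the control arrays, 3524, 3366 and 2568 at 5 h and 864, 932 and 820.4 at 24 h. The highest 24 h array lay below the lowest control array, and control replicate 1 was the lowest of the other 6. BNIP3 fell by 1.64 ± 0.22 at 24 h (adjusted p 0.0058). Another BNIP3 probe set fell by 1.95 and was called, and the dimmest, with a mean intensity of 31.5, differed by -0.58 and was not. BNIP3L had 1546, 1698 and 2089.6 on the control arrays, 1829.7, 1362 and 2003 at 5 h and 2787, 2534 and 3089 at 24 h. All 24 h arrays lay above all others. The 24 h difference of 0.66 ± 0.17 had an adjusted p of 0.0503, just short of a call, and of 0.0013 with the block. Without the block it was called after leaving out the arrays numbered 3 (0.71, adjusted p 0.045), and also with a pseudocount of 64, the stricter filter, quantile normalization, or without 5 h replicate 2 or 3, but not after centring (adjusted p 0.15).

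NDRG1, a gene that hypoxia and other stresses induce, had 3112, 4078 and 3041 on the control arrays, 2991, 3767 and 2446 at 5 h and 1755, 2053 and 1474 at 24 h. Its 24 h arrays lay below all others, and it fell by 0.95 ± 0.19 at 24 h (adjusted p 0.022). VEGFA, the main growth factor for blood vessels, had 2107, 2165 and 1396 at 24 h, against 1539.8, 1279 and 1118 in control. Its difference of 0.51 ± 0.25 was called higher with the block only (adjusted p 0.0059, against 0.26), while its dimmer probe set differed by -0.034, so the direction of VEGFA depends on the probe set. MXI1, which opposes MYC at their shared partner MAX, had 270.2, 251 and 485 at 24 h, against 132, 117 and 275 in control. It was called higher with the block only, by 0.91 ± 0.37 (adjusted p 4.8e-04, against 0.18), and its 2 dimmer probe sets rose by 0.88 and 0.74 and were called without the block. KDM3A, a histone demethylase, had 534, 489.7 and 595 at 24 h, against 361, 374 and 425 in control. Its groups did not overlap, and its difference of 0.46 ± 0.15 was called higher with the block only (adjusted p 0.011, against 0.10). The dimmer probe set of KDM3A differed by 0.40 and was not called in either fit (adjusted p 0.060 with the block).

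Of the collagen-modifying enzymes, PLOD2 alone was called at 24 h against control, with the block only. PLOD2, a lysyl hydroxylase that sets collagen cross-links, had 3613, 4015 and 4514 at 24 h, against 2989.6, 1991 and 3510.2 in control. The lowest 24 h array lay above the highest control array, and the difference was 0.55 ± 0.28 (adjusted p 0.018 with the block, against 0.28). Its dimmer probe set differed by 0.83 (adjusted p 0.054 without the block). PLOD1, P4HA1 and P4HA2, also collagen hydroxylases, differed by 0.25 ± 0.43, -0.026 ± 0.21 and -0.072 ± 0.14, and ADM by -0.16 ± 0.098. ERO1A, an oxidase of the endoplasmic reticulum, differed by -0.13 ± 0.34. The probe sets used for these 5 genes were not called in either fit at any time, while a dimmer one of ERO1A differed by -0.42, called with the block only (adjusted p 0.031).

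**Figure D3:**
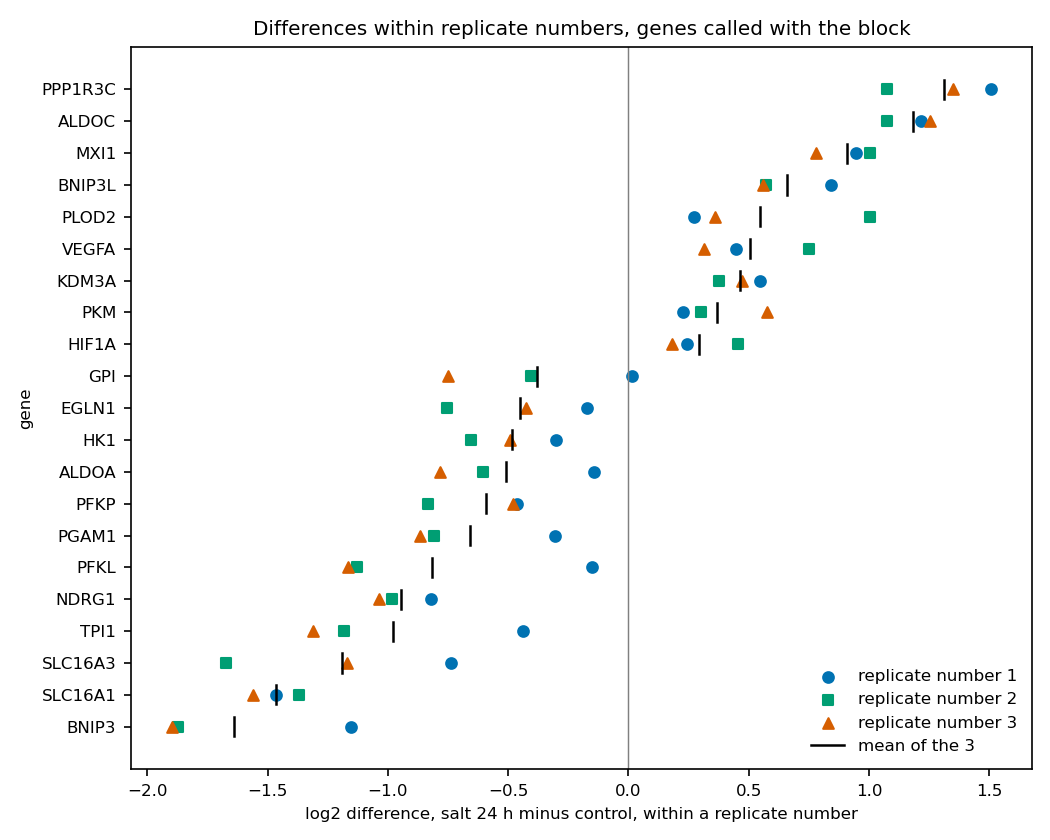
Log2 difference at 24 h minus control within each replicate number (x axis) for the 21 genes called with the replicate block (y axis), with the mean of the 3 as a black bar. The 3 points lie on the same side of 0 for every gene shown except GPI, whose replicate number 1 sits at 0.015.

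The comparison of 24 h with 5 h in salt uses no control array but shares the 24 h arrays with the comparison against control. PPP1R3C, ALDOC and BNIP3L were higher at 24 h than at 5 h, and BNIP3, SLC16A1, TPI1, SLC16A3, NDRG1 and PGAM1 were lower. Of the 38 genes, 3 were called higher at 24 h (7.89%) and 6 lower (15.8%), beside 8.01% and 6.15% of all probe sets. With the block 10 were higher (26.3%) and 13 lower (34.2%), beside 24.2% and 19.6%. Again the share called higher lay near that of all probe sets and the share called lower above it, which was not tested. The median difference was -0.10 over the 38 genes and 0.057 over all tested. Centring the arrays moved the calls over all probe sets from 1443 higher and 1108 lower to 806 and 1608, and their median to -0.096.

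PPP1R3C was higher at 24 h than at 5 h by 2.04 ± 0.23 (adjusted p 0.0028) and ALDOC by 1.50 ± 0.27 (adjusted p 0.011). BNIP3L was higher by 0.70 ± 0.17 (adjusted p 0.029), and by 0.55 after centring (adjusted p 0.14). BNIP3 differed by -1.82 ± 0.22 (adjusted p 0.0031), SLC16A1 by -1.72 ± 0.27 (adjusted p 0.0066) and TPI1 by -1.11 ± 0.17 (adjusted p 0.0063). In these 3 genes every 24 h array lay below every 5 h array. SLC16A3 differed by -1.01 ± 0.22 (adjusted p 0.020), NDRG1 by -0.79 ± 0.19 (adjusted p 0.029) and PGAM1 by -0.71 ± 0.17 (adjusted p 0.028). PGAM1 had an adjusted p of 0.054 without the arrays numbered 3. PGM1 was higher and EGLN3 lower with the block only, with differences of 0.35 ± 0.34 (adjusted p 0.029, against 0.57) and -0.64 ± 0.32 (adjusted p 0.022, against 0.23). The dimmer probe set of PGM1 differed by 0.13 and was not called in either fit (adjusted p 0.43 with the block). The other genes called with the block between 5 h and 24 h were HK1, GPI, PFKL, PFKP, ALDOA and EGLN1, lower, and PKM, HIF1A, VEGFA, PLOD2, KDM3A and MXI1, higher. The dimmer probe set of PLOD2 (0.79, adjusted p 0.048) and those of MXI1 (0.79 and 0.81, adjusted p 0.026 and 0.019) were called higher without the block too. For VEGFA the probe sets were called in opposite directions here: the brighter differed by 0.52 and the dimmer by -0.45 (adjusted p with the block 0.0041 and 0.045).

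In 15 of the 38 genes the probe set used was not called in any comparison in either fit: SLC2A1, PFKM, PFKFB3, PFKFB4, GAPDH, PGK1, ENO1, LDHA, LDHB, GBE1, ADM, P4HA1, P4HA2, PLOD1 and ERO1A. Their differences ran from -0.35 to 0.28 at 5 h from -0.16 to 0.31 at 24 h against control and from -0.35 to 0.42 between 24 h and 5 h. For some of them a call depended on the probe set or the scale. With the block a dimmer probe set of LDHA was called higher, and a dimmer one of ERO1A lower, at 24 h against control and against 5 h. With the arrays centred and the block, GAPDH, PGK1 and ADM were called lower at 24 h against control, and GAPDH, PGK1, ENO1, LDHA, LDHB, GBE1 and ERO1A lower at 24 h than at 5 h.

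The spread of a gene over the 9 arrays lay mostly between the salt groups in some genes and between replicate numbers in others. The groups held a median of 41.0% of a gene's sum of squares over the 38 genes, beside 34.7% over all probe sets tested. Replicate number held 33.4%, beside 41.8%. PPP1R3C and BNIP3 had the highest group shares, 92.5% and 92.0%. PKM, PLOD1 and P4HA1 had the highest shares between numbers, 98.1%, 93.3% and 92.5%. HK1, PFKL, PKM, PGM1 and PLOD1 were lower on every array numbered 3 than on every other array, and HIF1A, P4HA1 and ERO1A were higher. That is 13.2% and 7.89% of the 38, beside 18.3% and 9.69% of all probe sets. The other probe set of PLOD1 did not follow: its mean log2 value on the arrays numbered 3 was 0.22 above that on the others, against -1.01 for the brightest. The other probe set of PGM1 differed by -1.76, against -0.72 for the brightest. Without the arrays numbered 3, the block still called ALDOC, PPP1R3C, BNIP3L, VEGFA, PLOD2 and MXI1 higher and HK1, PFKP, TPI1, PGAM1, SLC16A3, SLC16A1, BNIP3 and NDRG1 lower at 24 h against control. The calls of PKM, HIF1A, KDM3A, GPI, PFKL, ALDOA and EGLN1 ended there, with adjusted p between 0.066 and 0.318. HIF1A then differed by 0.35, KDM3A by 0.46 and EGLN1 by -0.46, against 0.29, 0.46 and -0.45 over all arrays. GPI (-0.20), PKM (0.26), ALDOA (-0.37) and PFKL (-0.64) were nearer 0 than over all arrays.

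**Figure D4:**
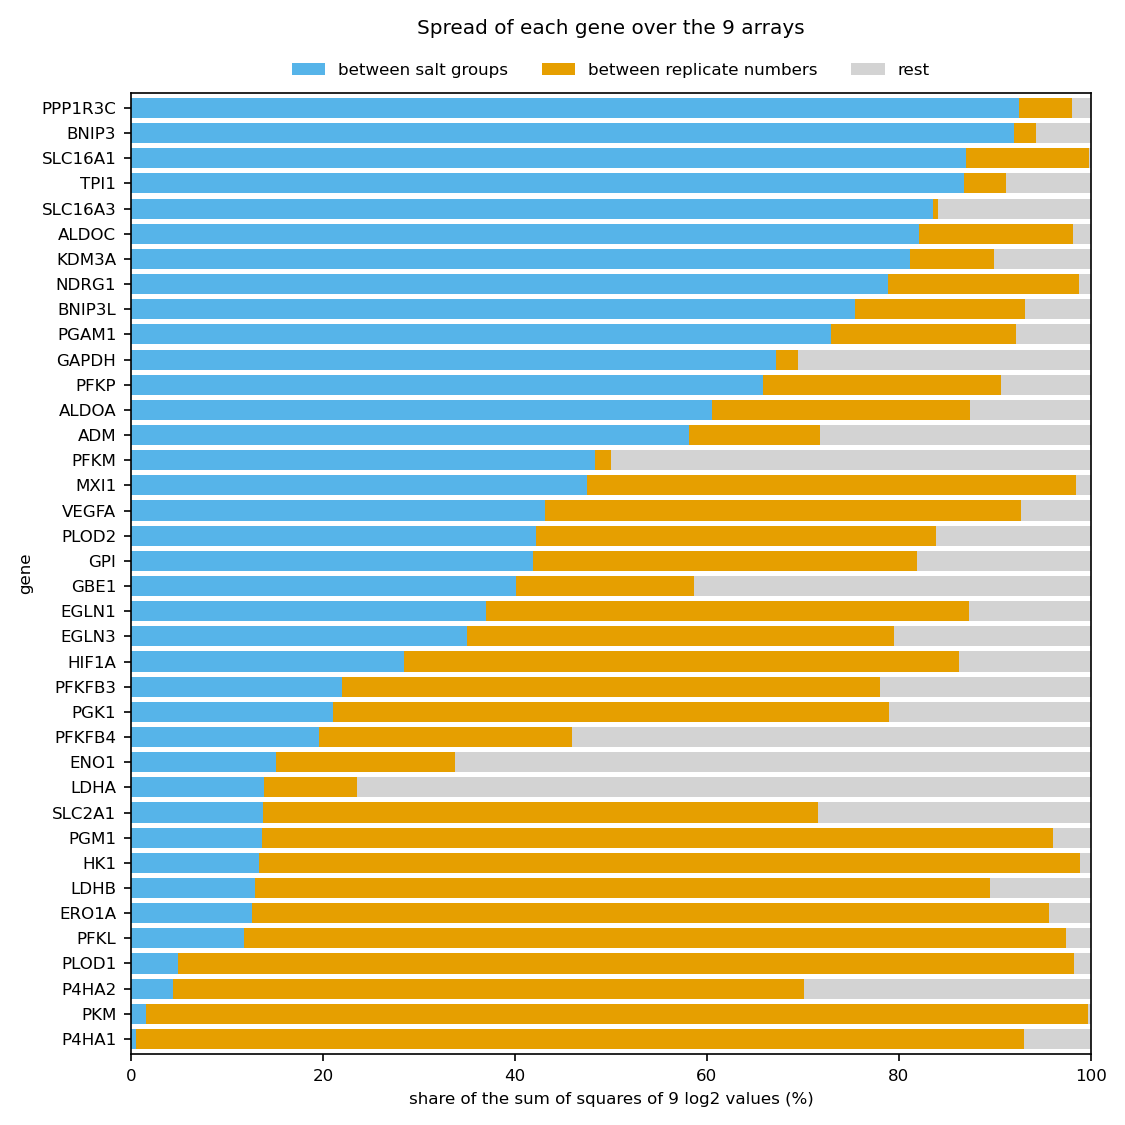
Share (%) of the sum of squares of each gene's 9 log2 values (x axis) that lies between the salt groups, between the replicate numbers and in the rest, for the 38 tested genes (y axis). PPP1R3C reaches 92.5% between groups at the top, and PKM 98.1% between replicate numbers near the bottom.

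Single arrays also bore on the calls at 24 h against control. BNIP3 kept its call when any 1 of the 9 arrays was left out (adjusted p at most 0.033). Without control replicate 2, and likewise without 24 h replicate 1, it was the only gene of the 38 called. Over all 18012 probe sets the calls there fell too, to 310 and 304, against 1550 with all 9 arrays. The highest adjusted p over the 9 refits was 0.073 for SLC16A1 and 0.065 for PPP1R3C. These lost their calls only without control replicate 2 or 24 h replicate 1. It was 0.061 for TPI1, lost also without control replicate 3. It was 0.074 for SLC16A3, lost also without control replicate 3 and 24 h replicate 2, and 0.090 for NDRG1, lost also without control replicate 3 and 24 h replicate 3. It was 0.12 for ALDOC, lost also without control replicate 3, 5 h replicate 1 and 24 h replicate 3. In the comparison of 24 h with 5 h, BNIP3, TPI1, SLC16A1, ALDOC and PPP1R3C kept their calls in all 9 refits. SLC16A3 (highest adjusted p 0.082), NDRG1 (0.093) and BNIP3L (0.091) lost theirs without 5 h replicate 1, 5 h replicate 2 or 24 h replicate 1. SLC16A3 and BNIP3L also lost it without 24 h replicate 2, NDRG1 and BNIP3L without 24 h replicate 3, and PGAM1 (0.095) without any 1 of the 6 arrays compared.

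Beyond the 48 genes, 6 further lists of the same pathways were read. Their counts at 24 h stand beside 4.28% higher and 4.32% lower over all probe sets, or 18.3% and 17.5% with the block. Of 14 other glycolytic and fructose enzymes tested, 1 was called higher and 1 lower at 24 h against control (3 and 2 with the block, 21.4% and 14.3%, near the shares of all probe sets). SORD, which oxidises the osmolyte sorbitol to fructose, fell by 0.96 ± 0.16, with 20.4 at 24 h, against 54.9 in control. GALM, which interconverts forms of glucose, rose by 0.82 ± 0.18, with a mean intensity of 1486 at 24 h, against 828 in control. Of 6 pentose phosphate enzymes 0 were called without the block and 1 was higher with it.

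Of 25 genes of pyruvate entry and the citric acid cycle, 2 were higher and 3 lower at 24 h, 8% and 12%. With the block 3 and 7 were, 12% and 28%, the first below and the second above the 18.3% and 17.5% of all probe sets. IDH3A, a subunit of an isocitrate dehydrogenase, fell by 1.06 ± 0.17, with a mean intensity of 1819 at 24 h, against 3784 in control. Pyruvate carboxylase (PC) rose by 1.25 ± 0.22. PDK3, a kinase that shuts off pyruvate dehydrogenase, rose by 1.19 ± 0.23, with a mean intensity of 1653 at 24 h, against 710.1 in control. MPC1, a subunit of the mitochondrial pyruvate carrier, fell by 0.53 ± 0.12.

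Of 24 further hypoxia targets, 3 were higher and 2 lower at 24 h, 12.5% and 8.33%. With the block 6 and 5 were, 25% and 20.8%, not far from the 18.3% and 17.5% of all probe sets. ANGPTL4, a secreted inhibitor of lipoprotein lipase, rose by 1.53 ± 0.33, INSIG1, which holds back sterol synthesis, by 1.07 ± 0.27, and the nuclear receptor RORA by 0.69 ± 0.17. AK4, a mitochondrial adenylate kinase, fell by 1.30 ± 0.24 and the chemokine receptor CXCR4 by 1.05 ± 0.23. At 5 h 1 was higher and 1 lower, beside 0.233% and 0.25% of all probe sets (1 and 4 with the block, beside 2.45% and 3.41%). The repressor BHLHE40 fell by 1.64 ± 0.27 at 5 h, with 294 in salt, against 931 in control, and JMJD6, an oxygen-dependent hydroxylase of the nucleus, rose by 0.99 ± 0.15.

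Of 7 further glycogen genes, 2 were higher and 0 lower at 24 h, 28.6% and 0% of so few genes (2 and 1 with the block, 28.6% and 14.3%). PYGB, a glycogen phosphorylase, rose by 0.83 ± 0.19 and PHKG2, a catalytic subunit of phosphorylase kinase, by 0.71 ± 0.16. Both act in glycogen breakdown, whereas PPP1R3C favours synthesis. PYGL, another glycogen phosphorylase, went the other way, with a mean intensity of 1684 at 24 h, against 2052 in control. Its difference of -0.31 ± 0.22 was called lower with the block only (adjusted p 0.022, against 0.49). Between 24 h and 5 h 3 of the 7 were called higher (42.9%) and 0 lower, beside 8.01% and 6.15% of all probe sets. With the block 3 were higher (42.9%) and 2 lower (28.6%), beside 24.2% and 19.6%. The 2 lower were GSK3B (-0.92 ± 0.55, adjusted p 2.95e-04 with the block, against 0.32) and PYGL (-0.31 ± 0.22, 0.018 against 0.42). The 3 called higher, in either fit, were PYGB, PHKG2 and PPP1R3B, a paralog of PPP1R3C. PPP1R3B was higher at 24 h than at 5 h by 0.81 ± 0.23 (adjusted p 0.049). Against control it differed by 0.19 at 24 h and was not called in either fit. Of 7 partners in oxygen sensing 0 were called at 24 h against control (1 higher and 3 lower with the block). ELOC, a subunit of the ligase complex that removes HIF1A, was lower at 24 h than at 5 h, with a difference of -0.42 ± 0.096 (adjusted p 0.023). At 5 h the 5 lists other than the hypoxia targets held no gene called without the block.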

How the data were processed

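The deposited values were probe-set intensities on a linear scale, which the authors made with PLIER; the submitters' processing notes name Affymetrix Expression Console as the program. Neither its version nor its settings appear in the sources used here. The table held 24128 probe sets, and 112 manufacturer controls were left out. Of the other 24016, the platform annotation gives 13292 a single gene symbol and 86 several, and 10638 are unlisted there. All 40 measured genes matched a RefSeq gene table by gene number, with 0 symbols changed. No genome build is named by the files, so no positions or sequences are given.

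Array medians were 67.1 to 84.5, and the number of arrays limits precision. Intensities were used as log2(value + 16) with no further normalization. A filter at the 25th percentile of mean log2 value kept 18012 probe sets. Group means over all 9 arrays were fitted with limma 3.58.1 in R 4.3.3 (lmFit, eBayes with trend), and adjusted p-values use Benjamini-Hochberg. The code was tested on simulated data. Genes described in full are those called in any comparison in either fit and their paralogs or neighbours. Added lists name up to 4 called genes each, by the smallest adjusted p in any comparison; ANGPTL4, INSIG1 and CXCR4 were added after their values were seen, to complete a count. Members and lists were chosen with earlier results of these data known.

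The replicate numbers of the labels were taken to pair arrays. Deviations from group means correlated at 0.56 to 0.90 between same-numbered arrays of different groups, and at -0.78 to 0.54 between arrays of different number and group. Same-numbered arrays gave 0.56 to 0.72 for numbers 1 and 2 and 0.88 to 0.90 for number 3. Between numbers 1 and 2 of different groups it was 0.31 to 0.54, so their pairing is less distinct than that of number 3. In other groups, 9 of 9 arrays matched their own number best. Alternatives changed the pseudocount, the filter, the scaling, the probe set, the block and the arrays used.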

Additional observations from a re-analysis of the deposited data

Results flagged for a closer look

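In 9 genes of the list the response at 24 h differed from that at 5 h by the direct limma test of 24 h minus 5 h, which uses no control array. The log2 differences were positive in PPP1R3C (2.04), ALDOC (1.50) and BNIP3L (0.70). They were negative in BNIP3 (-1.82), SLC16A1 (-1.72), TPI1 (-1.11), SLC16A3 (-1.01), NDRG1 (-0.79) and PGAM1 (-0.71). PPP1R3C was the only one of them also called at 5 h against control, in the opposite direction and with the replicate block only. Beside these, 8.01% of all probe sets were called higher and 6.15% lower in this comparison.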

How the results depend on the processing

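With the replicate block, the probe sets called were 1056 at 5 h against control (87 without it), 6452 at 24 h against control (1550 without it) and 7884 between 24 h and 5 h (2551 without it). Genes of the list called with it were 9 higher and 12 lower at 24 h, 10 higher and 13 lower between the times, and 1 lower at 5 h. With the 6 compared arrays alone, 13 probe sets were called at 5 h and 792 at 24 h (406 higher, 386 lower). Of the list, 1 gene was then higher and 5 were lower at 24 h. After centring, 57 probe sets were called at 5 h (34 higher, 23 lower). At 24 h 1 gene of the list was higher and 6 were lower, beside 503 and 827 of all probe sets. The median over all probe sets moved by over 0.1 in the comparison of 24 h with 5 h alone, from 0.057 to -0.096, and 36 of 38 genes kept their sign there, against 25 of 38 at 5 h.

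Leaving out the arrays numbered 3, and centring with the block, were chosen after seeing the data. Without the arrays numbered 3 and with the block, 175, 3341 and 5274 probe sets were called at 5 h, at 24 h and between them, and of the list 6 were higher and 8 lower at 24 h and 9 higher and 12 lower between the times. Centring with the block gave 1040 (605 higher, 435 lower), 6472 (2678 and 3794) and 8012 (2968 and 5044). Of the list, it gave 1 lower at 5 h, 8 higher and 15 lower at 24 h, and 8 higher and 20 lower between the times. Leaving out each array in turn, which was planned, gave 15 to 126, 304 to 1533 and 854 to 2429 probe sets. Of the list it gave 0 to 3 higher and 1 to 6 lower at 24 h, and 2 to 3 higher and 3 to 6 lower between the times.

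Over the 23 genes called in any comparison, no difference that was called under either setting compared changed its sign, single other probe sets left aside. Taken singly, the VEGFA probe sets were called in opposite directions between 24 h and 5 h with the block (0.52 and -0.45). Differences that were not called also changed sign: over the alternatives at least 25 of the genes tested kept their sign at 5 h, and at least 33 in each of the other comparisons. In 1270 cases the value kept its side of the threshold or, as a mean of probe sets, moved by less than the spread between arrays, in 92 a call was gained, in 44 it was lost, and in 1 the value moved: VEGFA between 24 h and 5 h was 0.036 as the mean of its probe sets. The cause of these changes was not tested. The dim probe sets and those near the top of the range limit what can be read, since both understate a change.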

Other observations

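A control probe set outside the analysis showed the same split as PKM. The middle-region probe set of elongation factor 1 alpha, among the manufacturer's controls, had 538, 484 and 235 on the arrays numbered 3 of control, 5 h and 24 h, and 2889.5 to 6359.5 on the other 6. The probe set for the 5′ region of the same transcript had 12694 to 14280 on all 9 arrays.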
